A study of Homo sapiens with 74 samples.

Results

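The 8 genes described here, BCL11A, ZBTB7A, LIN28B, IGF2BP1, IGF2BP2, IGF2BP3, HMGA1 and HMGA2, are regulators of fetal globin expression and genes of the LIN28B and let-7 axis. They were chosen by name, with earlier results of these data known. All 8 were found among the 28131 genes that each of the deposited RNA-seq tables lists. Messenger RNA had been counted in K562 and HEL, established human erythroleukaemia lines that make embryonic and fetal globins. K562 was compared between wild type control cells (2 distinct libraries), cells without the histone H3 lysine 79 methyltransferase DOT1L (genotype DOT1L-/-, 3 libraries, called DOT1L KO) and cells without ENL, the acetyl-lysine reader encoded by MLLT1 (genotype ENL-/-, 3 libraries, called ENL KO). HEL was compared between control cells (2 libraries) and cells with DOT1L knockdown (2 libraries, called DOT1L KD). No drug treatment or time point is given for any of these groups. The labels say neither whether a knockout line is 1 clone, nor how the knockdown was made, nor whether libraries came from separate cultures, so the p-values below measure the spread between these libraries, which may be technical.

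BCL11A and ZBTB7A are zinc finger repressors that silence the gamma-globin genes in adult red cell precursors, and their loss raises fetal haemoglobin. LIN28B is an RNA-binding protein of fetal erythroid progenitors that blocks the maturation of let-7 microRNAs. The let-7 family in turn represses LIN28B itself, the IGF2BP family of RNA-binding proteins and the architectural chromatin proteins HMGA1 and HMGA2, so these genes are typical of fetal cells. LIN28B and IGF2BP1 are both known to lower BCL11A protein in erythroid cells.

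The let-7 sequences through which this axis acts are shown first because they define the family: the seed, bases 2 to 8 from the 5′ end, pairs with target messages. Of 2545 mature microRNA entries of RefSeq (GRCh38.p14), 14 from 14 genes share the let-7 seed, under 11 distinct names. The capitals mark the seed in 5 of them:
let-7a-5p (chr9:94175962-94175983, plus strand): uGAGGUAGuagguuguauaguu
let-7b-5p (chr22:46113691-46113712, plus strand): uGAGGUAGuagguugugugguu
let-7g-5p (chr3:52268336-52268357, minus strand): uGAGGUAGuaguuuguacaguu
let-7i-5p (chr12:62603691-62603712, plus strand): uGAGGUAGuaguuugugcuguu
miR-98-5p (chrX:53556299-53556320, minus strand): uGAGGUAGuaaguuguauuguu
Against let-7a, let-7b, let-7g and miR-98 differ at 2 bases each and let-7i at 4 bases. All differences lie outside the seed by construction, since the entries were picked for sharing it.

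LIN28 proteins bind let-7 precursors partly through the letters GGAG in the terminal loop. GGAG occurs in 10 of the 13 hairpins of this seed family that RefSeq lists (76.9%) and in 678 of all 1562 hairpins (43.4%), read on the transcribed strand only. These counts take a match anywhere in the hairpin, not only in the loop. In MIR4500 the only match lies near the 5′ end. The hairpins of let-7g, which holds it, and of let-7b, which does not, are shown with GGAG in capitals:
MIRLET7G (chr3:52268278-52268361, minus strand): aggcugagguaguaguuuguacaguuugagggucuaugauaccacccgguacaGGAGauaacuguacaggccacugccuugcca
MIRLET7B (chr22:46113686-46113768, plus strand): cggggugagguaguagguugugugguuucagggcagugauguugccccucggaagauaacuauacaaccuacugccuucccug
A match of these letters is a description and no measurement of LIN28 binding. The deposited tables list 12 let-7 family hairpins, with counts between 0 and 9 in any library and 116 of 144 values at 0. These libraries of polyadenylated RNA therefore do not measure mature let-7.

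A K562 library held 15404944 to 29236703 counts and a HEL library 12151495 to 12811688. Levels are given as CPM, in which TMM factors computed over the 12 distinct libraries put all libraries on a common scale. The limit that a count of 0 allows, 3 counts, was worth 0.0995 to 0.252 CPM. The targeted messages were lower in their own groups: DOT1L fell by 0.53 on the log2 scale in K562 DOT1L KO and by 1.64 in HEL DOT1L KD, and MLLT1 fell by 0.48 in ENL KO (edgeR's quasi-likelihood test, adjusted p at most 5.26e-06). Of the control message 69.3%, 32.0% and 71.5% remained, so the loss of protein rests on the labels and is not shown by RNA. MLLT1 stood at 102% of control in K562 DOT1L KO and at 132% in HEL DOT1L KD. All 9 erythroid markers, among them GATA1, KLF1 and the gamma-globins, were at 1 CPM or more in each group. Of 8 megakaryocytic markers, 2 reached 1 CPM in each K562 group and 7 in each HEL group. The summed erythroid markers were 5115 to 5492 CPM in K562 control, 6585 to 7044 in DOT1L KO and 5603 to 5708 in ENL KO, and 5836 to 5887 in HEL control against 8075 to 8757 in DOT1L KD. The summed monocytic and granulocytic markers (7 genes) were 37.4 to 39.9 CPM in K562 control, 303 to 334 in DOT1L KO and 19.9 to 20.8 in ENL KO. LYZ gave most of that sum, at 285 to 317 CPM in DOT1L KO. CSF3R (1.05 and 1.07 CPM in control), ITGAM (2.88 and 3.34) and CSF1R (0.0457 and 0.0463) were also higher there. They stood at 9.15 to 10.0, 7.09 to 7.83 and 0.371 to 0.498 CPM. MPO was lower, at 0.503 and 0.463 CPM in control (11 and 10 counts) and 0.0332 to 0.135 in DOT1L KO, and CD14 overlapped. In ENL KO, CSF3R and ITGAM were at most 0.129 and 0.528 CPM. ELANE had 1 and 0 counts in control and 0 in both knockouts. Lymphoid markers (6 genes) summed to 52.9 to 54.7 CPM in K562 control, 17.0 to 21.7 in DOT1L KO and 61.5 to 72.2 in ENL KO. MS4A1 was at 0 throughout, and CD3D gave most of these sums (50.1 to 51.9 CPM in control). The summed megakaryocytic markers were 7.22 to 9.73 CPM in K562 control, 32.8 to 34.9 in DOT1L KO and 29.1 to 36.4 in ENL KO, nearly all of it from ITGA2B and ITGB3. In HEL they were 2685 to 2762 CPM in control and 2143 to 2151 in DOT1L KD. These sums move with several results below, and their part in those results was not tested. The erythroid sum includes KLF1, HBG1 and HBG2, which are also reported below, so it moves with them by construction. In bulk RNA, fewer cells of a type and less RNA per cell cannot be told apart.

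The 8 genes differed widely in level. Per kilobase of exon, the scale on which genes can be compared, K562 control cells held HMGA1 at 1202 ± 38.5 CPM per kb (SD, n = 2), IGF2BP1 at 62.1 ± 2.30, IGF2BP3 at 35.7 ± 1.55, IGF2BP2 at 27.1 ± 1.02, LIN28B at 26.9 ± 0.175, ZBTB7A at 16.7 ± 0.563 and HMGA2 at 0.182 ± 0.0628. BCL11A had no count in either K562 control library. HEL control cells held the genes in another order: HMGA1 at 162 ± 6.06 CPM per kb, IGF2BP1 at 49.0 ± 0.283, IGF2BP2 at 33.0 ± 1.74, LIN28B at 19.8 ± 0.380, IGF2BP3 at 11.0 ± 0.335, ZBTB7A at 3.24 ± 0.0769 and BCL11A at about 0.601 to 0.654 CPM per kb in the single libraries. HMGA2 had no count in either HEL control library.

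**Figure D1:**
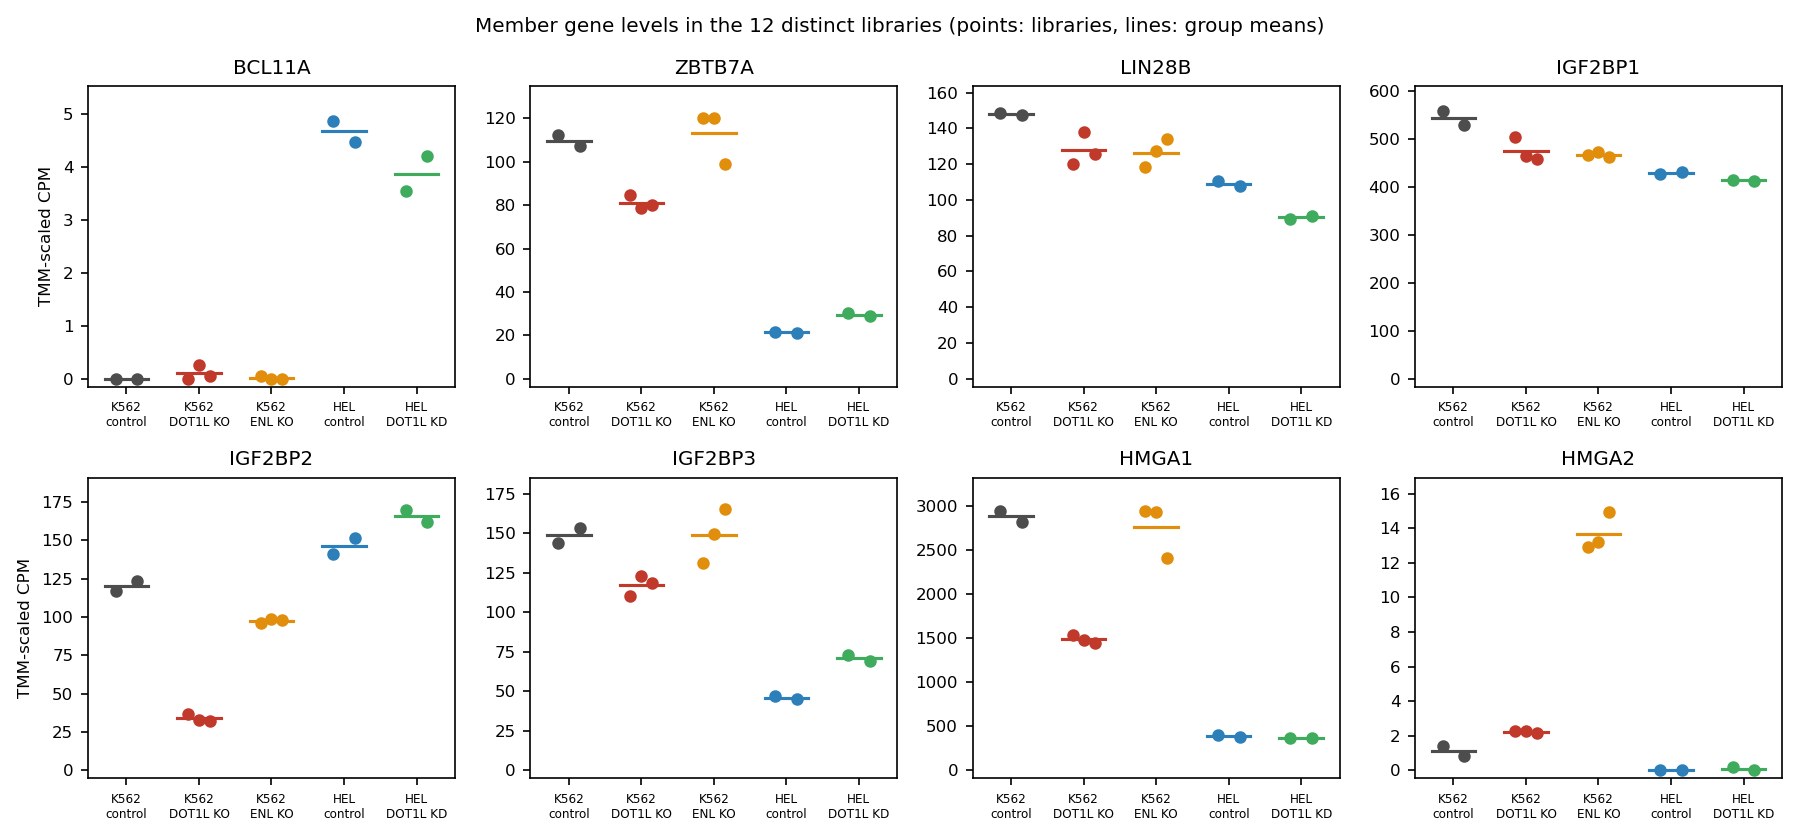
TMM-scaled CPM of each of the 8 genes (y axis, linear, one panel a gene) in the 12 distinct libraries, with points for libraries and lines for group means in 5 groups. IGF2BP2 and HMGA1 are lowest among K562 groups in DOT1L KO, HMGA2 is highest in ENL KO at 12.9 to 14.9 CPM, and BCL11A is present in HEL and near 0 in K562.

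In K562 DOT1L KO, 7 of the 8 genes passed the filter on low counts and 7 passed the threshold of an edgeR adjusted p of 0.05, 6 lower and 1 higher, in a comparison where 51.1% of the 14301 tested genes passed (26.9% higher and 24.2% lower). The libraries of the groups did not overlap for 7 of the 7, as for 68.1% of tested genes, and 2 of them also changed by at least 1 on the log2 scale, as did 15.8% of tested genes. In ENL KO 4 of the 7 passed, 3 lower and 1 higher, where 41.0% of genes passed (18.8% higher and 22.2% lower). There 4 of the 7 did not overlap, as for 60.0% of genes, and 1 changed by at least 1, as did 11.0%. In HEL DOT1L KD 5 of 7 tested genes passed, 3 higher and 2 lower, where 55.0% of 12635 genes passed (27.0% higher and 28.0% lower). There 7 of the 7 did not overlap, as for 76.0% of genes, and 0 changed by at least 1, as did 5.84%. With this share of all genes changed, the counts of called genes alone say little, and the sizes below carry the description. The median absolute log2 fold change of all tested genes was 0.29 in DOT1L KO, 0.25 in ENL KO and 0.24 in HEL DOT1L KD. Of the HEL calls 49.1% were higher, and 61.4% with upper-quartile scaling, which moves the median of all genes from 0.01 to 0.09 on the log2 scale. Both K562 knockouts share the control libraries, so their fold changes are given side by side only. The labels of control and DOT1L KO name a sequencing lane and those of ENL KO name none, so whether ENL KO was sequenced with the others is not given. A batch difference, if there was one, and the loss of ENL cannot be told apart in any comparison of that group.

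**Figure D2:**
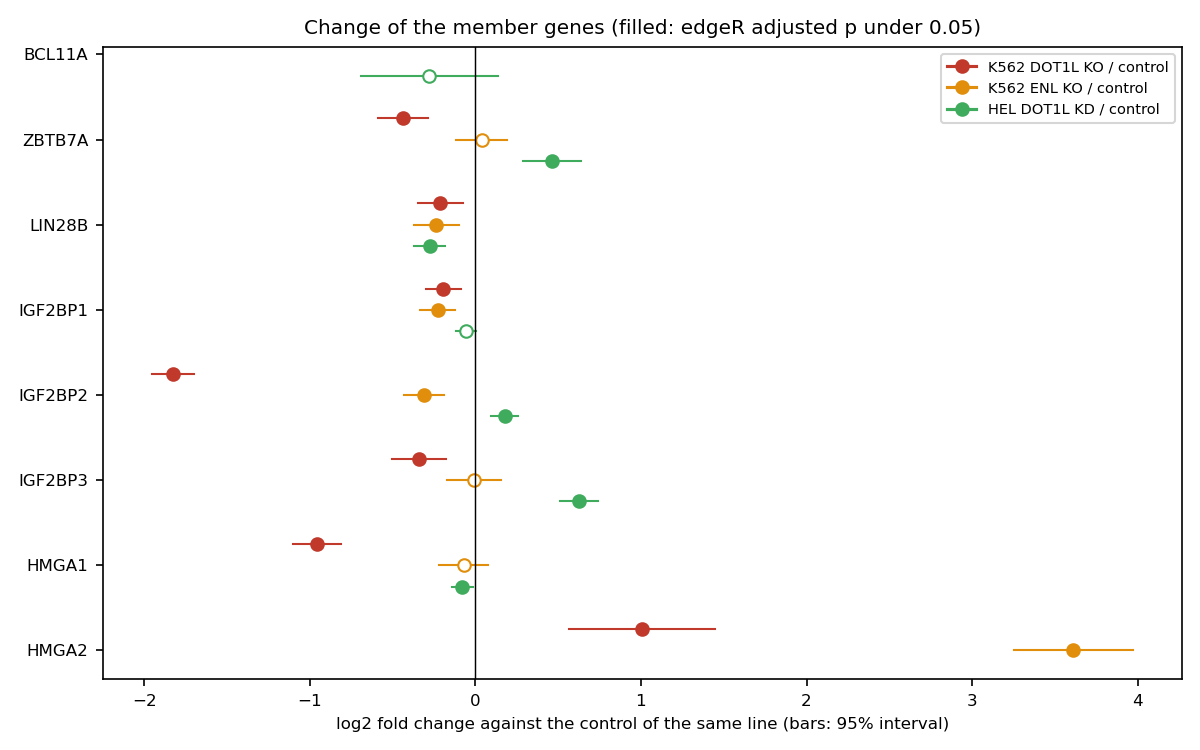
Log2 fold change of each gene against the control of its own line (x axis), with approximate 95% intervals, in K562 DOT1L KO, K562 ENL KO and HEL DOT1L KD. Filled points passed an edgeR adjusted p of 0.05; IGF2BP2 at -1.83 in DOT1L KO and HMGA2 at 3.61 in ENL KO lie farthest from 0, and genes that failed the filter on low counts have no point.

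BCL11A (chromosome 2, 60451167 to 60553498, minus strand, GRCh38) was at or near 0 in K562 and present at a low level in HEL. Its counts were 0 and 0 in K562 control, 0, 8 and 1 in DOT1L KO, and 1, 0 and 0 in ENL KO. Only DOT1L KO library 2, at 0.265 CPM, was above the limit of its library, so BCL11A was not tested within K562 and a change was not detectable at this depth. HEL libraries held 59 and 55 counts in control (4.87 and 4.48 CPM) and 43 and 50 in DOT1L KD (3.53 and 4.19 CPM). The groups did not overlap, and the log2 fold change of -0.28 ± 0.21 (SE) did not pass (adjusted p = 0.269, approximate 95% interval -0.69 to 0.14). Against the limit of 3 counts per K562 library, BCL11A was at least 33.6-fold higher in HEL control than in K562 control.

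ZBTB7A (chromosome 19, 4043304 to 4066945, minus strand) fell in K562 DOT1L KO and rose in HEL DOT1L KD. It stood at 112 and 107 CPM in K562 control, at 84.7, 78.6 and 80.1 CPM in DOT1L KO, and at 120.0, 120.0 and 99.2 CPM in ENL KO. The DOT1L KO libraries lay below all others of K562, whereas ENL KO overlapped the control, its library 3 lying below both control libraries. The log2 fold change was -0.44 ± 0.078 in DOT1L KO (adjusted p = 0.000398), to 73.9% of control, and 0.04 ± 0.079 in ENL KO (adjusted p = 0.74, interval -0.12 to 0.19). In HEL the level was 21.7 and 21.0 CPM in control and 30.3 and 28.8 CPM in DOT1L KD. All KD values lay above the control, a log2 fold change of 0.46 ± 0.089 (adjusted p = 1.39e-05).

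A list of 26 genes linked to the silencing of fetal globin was also counted, and not all of them act as silencers. Of these, 14 passed the threshold in K562 DOT1L KO (6 higher, 8 lower) and 11 in ENL KO (6 higher, 5 lower). In HEL DOT1L KD 14 of 24 tested passed (5 higher, 9 lower). These are shares of 53.8%, 42.3% and 58.3%, against 51.1%, 41.0% and 55.0% of all genes, and the list medians of 0.00, 0.04 and -0.05 on the log2 scale stood beside all-gene medians of 0.01, 0.00 and 0.01. NFIX, a nuclear factor I protein that keeps gamma-globin chromatin closed in adult cells, fell by 1.53 on the log2 scale in DOT1L KO and by 1.10 in HEL DOT1L KD. SOX6, a partner of BCL11A at the globin locus, fell by 1.07 in DOT1L KO and by 1.67 in ENL KO. MYB, a progenitor factor whose reduction raises fetal haemoglobin, fell by 0.50 in DOT1L KO, by 0.59 in ENL KO and by 0.87 in HEL DOT1L KD. KLF1, the erythroid factor that activates BCL11A and adult globin, rose by 0.72 in DOT1L KO and 0.43 in ENL KO, and NFIA fell by 0.53 in DOT1L KO and rose by 0.92 in HEL DOT1L KD.

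In K562 DOT1L KO 7 of 8 globin genes rose, the fetal HBG1 and HBG2 by 0.47 and 0.59 on the log2 scale and others by more: HBD by 2.28, the embryonic HBZ by 1.44, HBA2 by 1.06 and HBE1 by 0.81. The adult HBB stood at -0.39 there (adjusted p = 0.501). In ENL KO 4 of 8 rose, HBE1 by 1.20, HBD by 1.01, HBZ by 0.61 and HBG2 by 0.23, while HBG1 stood at 0.14 (adjusted p = 0.157). In HEL DOT1L KD 8 of 8 rose, HBG1 and HBG2 by 0.57 and 0.72, beside 2.82 for HBZ and 2.57 for HBA2. Of all tested genes, 26.9% passed as higher in K562 DOT1L KO, 18.8% in ENL KO and 27.0% in HEL DOT1L KD. HBG1 and HBG2 are near-identical copies, as are HBA1 and HBA2, so their separate values are uncertain.

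LIN28B (chromosome 6, 104957048 to 105083332, plus strand) was lower in each depleted group by a similar small amount. Its levels were 149 and 147 CPM in K562 control, 120.1, 138 and 125 CPM in DOT1L KO, and 118, 127 and 134 CPM in ENL KO. Each knockout library lay below both control libraries, while the knockouts overlapped each other. The log2 fold changes were -0.21 ± 0.069 in DOT1L KO (adjusted p = 0.0208) and -0.24 ± 0.070 in ENL KO (adjusted p = 0.0152). Both calls were fragile. The DOT1L KO call was lost with library-size scaling (adjusted p = 0.0647) and without control 1 (0.0916), control 2 (0.0804), DOT1L KO 1 (0.0779) or DOT1L KO 3 (0.0626), and the ENL KO call without control 1 (0.0851) or control 2 (0.0732). In HEL, LIN28B fell from 111 and 108 CPM in control to 89.5 and 91.1 CPM in DOT1L KD, a log2 fold change of -0.28 ± 0.047 (adjusted p = 1.6e-06), to 82.6% of control.

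LIN28A, the paralog of LIN28B with the same action on let-7, moved in opposite directions in the knockouts at a far lower level. It had 23 and 32 counts in K562 control, 3, 3 and 5 in DOT1L KO, and 122, 108 and 89 in ENL KO. The groups did not overlap. Pooled counts in DOT1L KO were 11 against 55 in control, 11.7% of the control level with an exact 95% counting interval of 5.54 to 22.7%, and the edgeR adjusted p was 1.71e-05. In ENL KO LIN28A rose by 2.12 ± 0.21 on the log2 scale (adjusted p = 3.53e-06). Per length, LIN28A made up 1.16 ± 0.283% of the LIN28A and LIN28B sum in K562 control (SD, n = 2), 0.168 ± 0.0777% in DOT1L KO and 5.70 ± 0.525% in ENL KO (n = 3 each), so LIN28B was the main message of the pair in each group. HEL held 0, 0, 2 and 0 counts of LIN28A.

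Among 18 genes of let-7 biogenesis and LIN28 partners, 11 passed in K562 DOT1L KO (4 higher, 7 lower), 6 in ENL KO (2 higher, 4 lower) and 8 of 17 tested in HEL DOT1L KD (3 higher, 5 lower). The shares of 61.1%, 33.3% and 47.1% stood beside 51.1%, 41.0% and 55.0% of all genes. TRIM71, a let-7 target and ubiquitin ligase of stem cells, rose by 0.65 in DOT1L KO, and its 6 pooled counts in ENL KO were 3.52% of the control level (exact 95% counting interval 1.27 to 7.88%, 129 counts in control, adjusted p = 2.32e-07). DICER1, the nuclease that releases mature let-7, fell by 0.52 in DOT1L KO, and DROSHA, which cuts the primary transcript, fell by 0.46 in ENL KO. In HEL DOT1L KD the largest changes were in XPO5, the exporter of precursors (-0.67), TUT7, a uridylyl transferase (-0.39), and AGO4, an Argonaute protein (-0.33). Among transcripts that host let-7 genes, MIR99AHG, the host of let-7c, rose by 0.92 in HEL DOT1L KD (31 and 29 counts in control, 62 and 51 in KD). There WDR82, the host of let-7g, fell by 0.52 and HUWE1, the host of miR-98, rose by 0.13. HUWE1 fell by 0.34 in K562 DOT1L KO and by 0.37 in ENL KO, where WDR82 fell by 0.16. Of this list of hairpins and hosts, 1 of 3 tested genes passed in DOT1L KO, 2 of 3 in ENL KO and 3 of 4 in HEL DOT1L KD.

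The IGF2BP proteins bind and stabilise messages in fetal and cancer cells, and in K562 DOT1L KO all 3 paralogs fell, IGF2BP2 by far the most. IGF2BP2 (chromosome 3, 185643131 to 185825056, minus strand) stood at 117 and 124 CPM in control, 36.7, 32.9 and 32.3 CPM in DOT1L KO, and 96.2, 98.9 and 97.8 CPM in ENL KO. The 3 groups of libraries were fully separate. Its log2 fold change was -1.83 ± 0.064 in DOT1L KO (adjusted p = 1.14e-10), to 28.2% of control, and 181 of 14301 tested genes fell further. In ENL KO it was -0.31 ± 0.063 (adjusted p = 0.00136). HEL had 141 and 152 CPM in control and 170.0 and 162 CPM in DOT1L KD, a rise of 0.18 ± 0.042 (adjusted p = 0.000347).

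IGF2BP3 (chromosome 7, 23310209 to 23470376, minus strand) fell in K562 DOT1L KO and rose in HEL DOT1L KD. Its levels were 144 and 153 CPM in K562 control, 111, 123 and 119 CPM in DOT1L KO, and 131, 149 and 166 CPM in ENL KO. DOT1L KO lay below all other K562 libraries (-0.34 ± 0.083, adjusted p = 0.0038), and ENL KO spanned the control values (-0.01 ± 0.084, adjusted p = 0.946, interval -0.17 to 0.16). In HEL it rose from 46.8 and 44.8 CPM to 72.8 and 69.1 CPM, a log2 fold change of 0.63 ± 0.060 (adjusted p = 3.83e-13), the largest of the 7 tested genes in that line.

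IGF2BP1 (chromosome 17, 48997412 to 49056145, plus strand) changed little. It stood at 559 and 530.1 CPM in K562 control, 506, 465 and 458 CPM in DOT1L KO, and 467, 473 and 464 CPM in ENL KO. All knockout libraries lay below the control, with log2 fold changes of -0.19 ± 0.054 in DOT1L KO (adjusted p = 0.00818) and -0.23 ± 0.054 in ENL KO (adjusted p = 0.00424). Neither call held without control 1 (adjusted p = 0.0883 and 0.0634). HEL had 428 and 431 CPM in control and 415 and 414 CPM in DOT1L KD (-0.06 ± 0.031, adjusted p = 0.108, interval -0.12 to 0.00). That value was 0.02 with upper-quartile scaling, and the adjusted p was 0.0489 without control 1.

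The makeup of the family moved with these changes. Per length, the 3 paralogs summed to 125 ± 0.270 CPM per kb in K562 control (SD, n = 2), 90.2 ± 2.23 in DOT1L KO and 111 ± 4.18 in ENL KO (n = 3 each). IGF2BP2 made up 21.7 ± 0.765% of that sum in control, 8.49 ± 0.395% in DOT1L KO and 19.8 ± 0.578% in ENL KO, and IGF2BP1 made up 49.7 ± 1.95%, 60.2 ± 1.86% and 48.1 ± 1.95%. In HEL the sum was 93.0 ± 1.69 CPM per kb in control and 102 ± 2.00 in DOT1L KD. There IGF2BP3 went from 11.8 ± 0.575% to 16.8 ± 0.291% of the family, and IGF2BP2 stood at 35.5 ± 1.23% and 36.8 ± 0.547%. These shares are a description with no test.

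**Figure D3:**
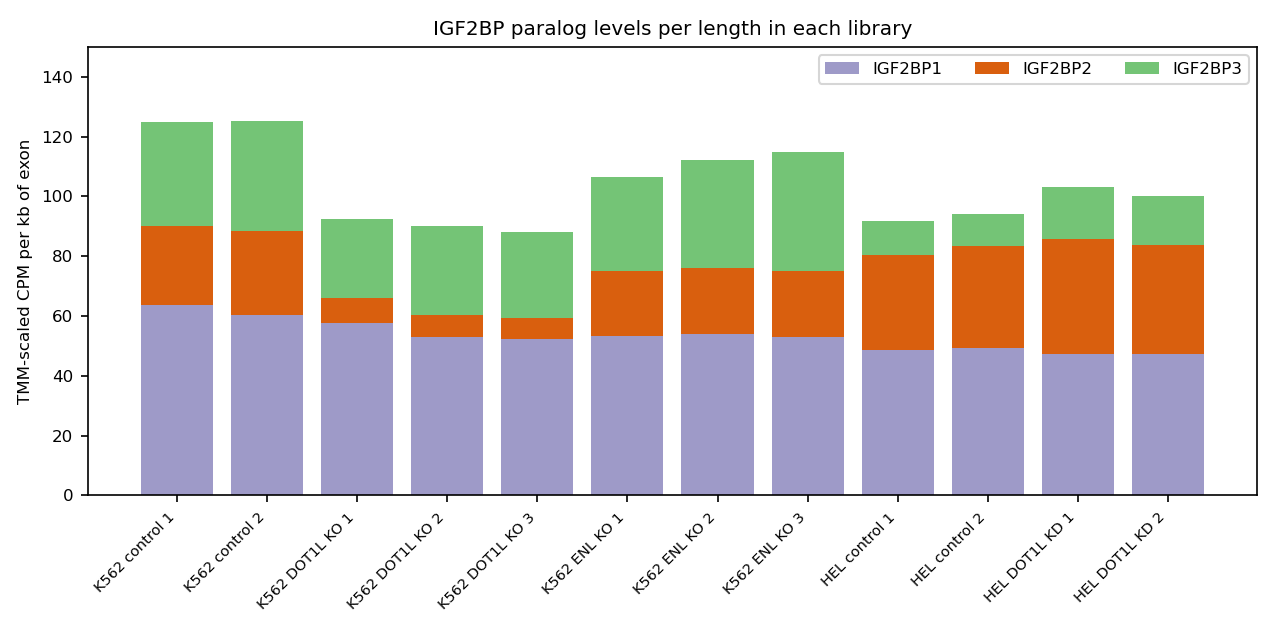
Stacked bars of IGF2BP1, IGF2BP2 and IGF2BP3 levels (y axis, TMM-scaled CPM per kb of exon, from 0) in each of the 12 distinct libraries. The IGF2BP2 layer is thin in the 3 K562 DOT1L KO libraries, at 7.29 to 8.28 CPM per kb against 26.4 and 27.9 in the controls.

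Promoter windows of RefSeq (GRCh38.p14, 250 bases before to 50 after a start) were listed for 6 of the 8 genes. The window nearest the deposited gene start is shown for IGF2BP2 and HMGA1, which fell most in DOT1L KO, and for IGF2BP3, the paralog of IGF2BP2 that rose most in HEL. They were searched on both strands for TATAAA, the core of a classical promoter box, for CACGTG, a palindrome known as an E-box, and for AGATAA, a site of the erythroid factor that GATA1 encodes. None of these motifs overlap in the windows shown, and capitals mark matches:
IGF2BP2 (chr3:185824993-185825292, minus strand): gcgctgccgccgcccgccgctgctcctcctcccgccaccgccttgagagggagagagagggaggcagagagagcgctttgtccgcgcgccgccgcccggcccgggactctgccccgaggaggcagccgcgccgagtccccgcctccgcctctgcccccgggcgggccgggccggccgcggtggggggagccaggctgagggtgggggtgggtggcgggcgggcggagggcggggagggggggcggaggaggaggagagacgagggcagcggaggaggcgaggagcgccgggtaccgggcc
HMGA1 (chr6:34236623-34236922, plus strand): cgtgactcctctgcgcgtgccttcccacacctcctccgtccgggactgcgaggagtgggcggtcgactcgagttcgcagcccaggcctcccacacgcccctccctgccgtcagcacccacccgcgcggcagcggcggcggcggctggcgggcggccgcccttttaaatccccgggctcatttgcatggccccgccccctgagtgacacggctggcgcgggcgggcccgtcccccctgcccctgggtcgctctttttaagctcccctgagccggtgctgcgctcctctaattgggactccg
IGF2BP3 (chr7:23470442-23470741, minus strand): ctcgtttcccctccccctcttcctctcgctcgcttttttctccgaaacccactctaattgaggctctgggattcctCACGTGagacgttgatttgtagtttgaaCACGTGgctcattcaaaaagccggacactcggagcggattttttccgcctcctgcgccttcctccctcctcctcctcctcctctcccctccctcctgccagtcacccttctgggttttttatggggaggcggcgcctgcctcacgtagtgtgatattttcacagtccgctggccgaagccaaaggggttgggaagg
IGF2BP3 holds 2 CACGTG matches, and the other 2 windows hold none of the 3 motifs. Over 35116 promoter windows of this length, 11.5% hold TATAAA, 7.26% CACGTG and 10.3% AGATAA. The windows differ in CpG content: 38 CpG dinucleotides in IGF2BP2 (80.7% G and C), 33 in HMGA1 (72.0%) and 17 in IGF2BP3 (56.3%), against a median of 14 over all windows. Of the windows not shown, LIN28B had 8 CpG dinucleotides (39.0% G and C), with 2 AGATAA matches and 1 CACGTG match. ZBTB7A had 26 and BCL11A 25 CpG dinucleotides, with none of the 3 motifs. Whether CpG content goes with the changes was not tested. The motif matches describe letters in a window and say nothing of binding.

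HMGA1 (chromosome 6, 34236800 to 34246231, plus strand) fell in K562 DOT1L KO. It stood at 2949.8 and 2819 CPM in control, 1540.5, 1483.5 and 1440.1 CPM in DOT1L KO, and 2939, 2931 and 2415 CPM in ENL KO. DOT1L KO was far below every other K562 library, and ENL KO library 3 lay below the control while libraries 1 and 2 lay between the control values. The log2 fold change was -0.96 ± 0.074 in DOT1L KO (adjusted p = 1.66e-07), to 51.5% of control, and -0.07 ± 0.075 in ENL KO (adjusted p = 0.484, interval -0.22 to 0.08). In HEL it was 399 and 378 CPM in control and 371 and 367 CPM in DOT1L KD, a log2 fold change of -0.08 ± 0.032 that passed narrowly (adjusted p = 0.0324). That call was lost with DESeq2 (adjusted p = 0.0929), upper-quartile scaling (-0.01, adjusted p = 0.904), library-size scaling (0.245) or no filter on low counts (0.0655), and without control 1 (0.217), DOT1L KD 1 (0.101) or DOT1L KD 2 (0.168). HMGA1 has processed pseudogene copies, so reads shared with them could have been assigned elsewhere.

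HMGA2 (chromosome 12, 65824460 to 65966291, plus strand), a canonical let-7 target, rose in both K562 knockouts, whereas HMGA1 fell in DOT1L KO. Its counts were 30 and 18 in control, 50, 68 and 47 in DOT1L KO, and 271, 275 and 232 in ENL KO. These are 1.37 and 0.834 CPM, 2.24, 2.26 and 2.18 CPM, and 12.9, 13.2 and 14.9 CPM, with no overlap between the groups. HMGA2 rose by 1.01 ± 0.22 on the log2 scale in DOT1L KO (adjusted p = 0.00206) and by 3.61 ± 0.18 in ENL KO (12.2-fold, adjusted p = 4.21e-09). Only 44 of 14301 tested genes rose more in ENL KO, where LIN28A also rose and LIN28B was lower. Without control 1 or control 2, the change in DOT1L KO was 1.40 or 0.70. The summed megakaryocytic markers were also higher in both knockouts, at the values given above, and their part in this result was not tested. HEL libraries held 0, 0, 2 and 0 counts of HMGA2, below the limit of 3 counts, so it was not tested there.

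Of 27 other known let-7 targets, 13 of 23 tested passed in K562 DOT1L KO (8 higher, 5 lower), 10 of 23 in ENL KO (3 higher, 7 lower) and 18 of 22 in HEL DOT1L KD (7 higher, 11 lower). The shares were 56.5%, 43.5% and 81.8%, against 51.1%, 41.0% and 55.0% of all genes, and the list medians were 0.02, 0.08 and -0.17 on the log2 scale. In DOT1L KO the insulin receptor INSR rose by 1.06, and the cell cycle kinase CDK6 and the orphan nuclear receptor NR6A1 fell by 0.94 and 0.67. In ENL KO, besides TRIM71, cyclin D1 (CCND1) rose by 2.01 and cyclin D2 (CCND2) fell by 1.00. In HEL DOT1L KD the largest changes were in MYCN (-1.67), PRTG (-0.99) and the nuclease DNA2 (-0.87). Targets of the same microRNA family thus moved in both directions in each comparison.

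Of 11 messages known to be bound by IGF2BP proteins, 5 of 10 tested passed in K562 DOT1L KO (1 higher, 4 lower), 5 of 10 in ENL KO (3 higher, 2 lower) and 9 of 9 in HEL DOT1L KD (4 higher, 5 lower). The shares were 50%, 50% and 100%, against 51.1%, 41.0% and 55.0% of all genes. H19, an imprinted noncoding RNA, had 18 pooled counts in DOT1L KO against 158 in control, 6.69% of the control level (exact 95% counting interval 3.86 to 10.9%, adjusted p = 6.16e-08), and fell by 0.64 in ENL KO. CD44, a cell adhesion receptor, rose by 2.22 in DOT1L KO and 0.51 in ENL KO, and MYC fell by 0.49 and 0.66. In HEL DOT1L KD, BTRC, a ubiquitin ligase adaptor, fell by 0.50 and MDM2, a regulator of p53, by 0.26.

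**Figure D4:**
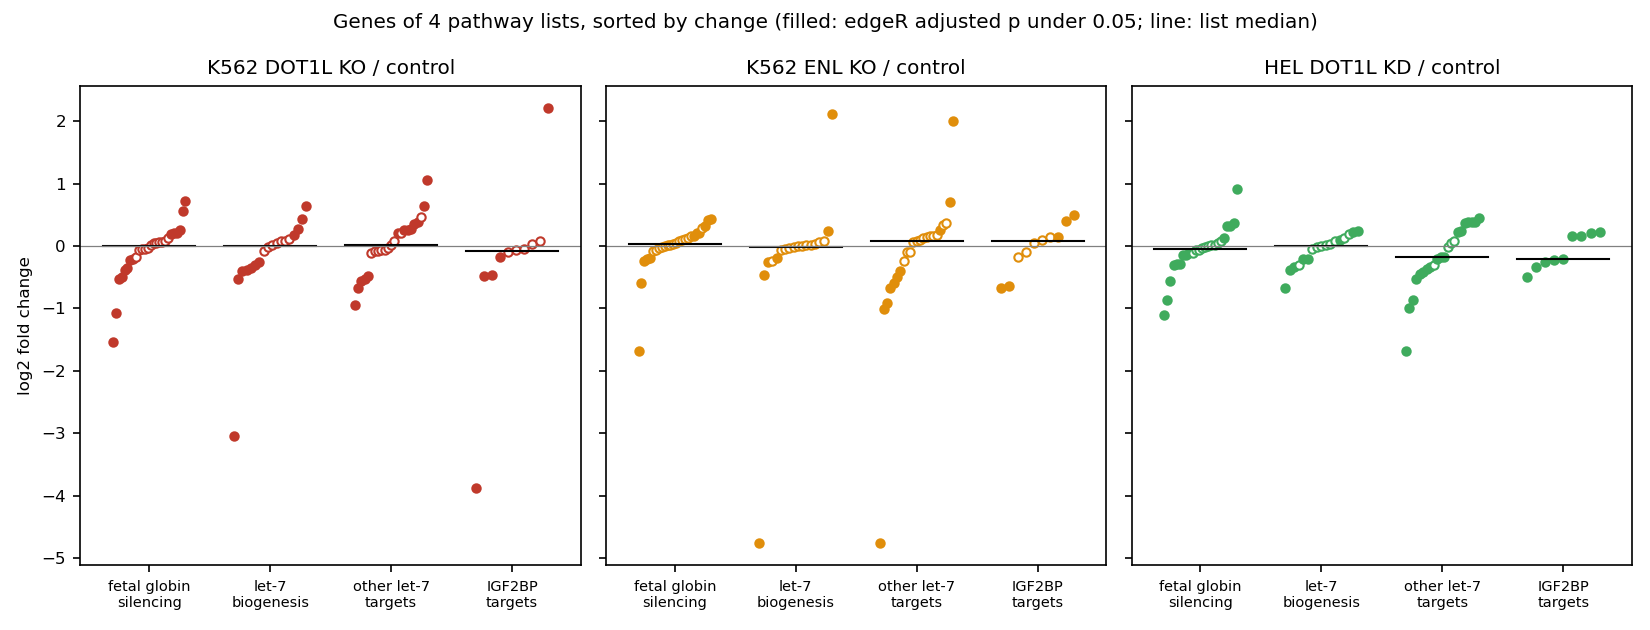
Log2 fold change (y axis) of each tested gene of 4 pathway lists, sorted within a list, in K562 DOT1L KO, K562 ENL KO and HEL DOT1L KD (panels). Filled points passed an edgeR adjusted p of 0.05 and black lines are list medians; each list holds genes on both sides of 0, with TRIM71 at -4.76 in ENL KO and H19 at -3.88 in DOT1L KO as the lowest points.

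The knockouts were also compared directly with each other, the controls entering only the filter, the scaling and the shared estimate of spread. Of 7 tested genes 5 passed, all lower in DOT1L KO than in ENL KO, where 60.2% of genes passed (31.8% higher and 28.3% lower). The same 5 did not overlap between the knockouts, as for 63.4% of genes, and 2 of them differed by at least 1 on the log2 scale, as did 19.2% of genes. HMGA2 differed by -2.60 ± 0.14, IGF2BP2 by -1.52 ± 0.060, HMGA1 by -0.89 ± 0.068, ZBTB7A by -0.47 ± 0.071 and IGF2BP3 by -0.33 ± 0.075 on the log2 scale (adjusted p at most 0.0018). LIN28B differed by 0.02 (adjusted p = 0.76, interval -0.10 to 0.15) and IGF2BP1 by 0.03 (adjusted p = 0.592, interval -0.06 to 0.13).

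Between untreated lines, each of the 8 genes differed (joint fit of 9 libraries), 2 higher and 6 lower in HEL, as did 85.6% of 15367 genes (41.3% higher and 44.2% lower). None of the 8 overlapped between the lines, as for 92.7% of genes, and 5 differed by at least 1 on the log2 scale, as did 57.2%. HMGA1 was lower in HEL control than in K562 control by -2.89 ± 0.053 on the log2 scale, ZBTB7A by -2.36 ± 0.075, IGF2BP3 by -1.70 ± 0.069, LIN28B by -0.44 ± 0.064 and IGF2BP1 by -0.34 ± 0.054, and IGF2BP2 was higher by 0.28 ± 0.064 (adjusted p at most 0.000343). HMGA2 was at least 4.45-fold lower in HEL control against the limit of 3 counts per HEL library, and LIN28A at least 5.12-fold lower. BCL11A was higher in HEL, by the bound given above. The HEL table counts reads and the K562 table fragments, and medium also differs between the lines. These, and a difference of library batch, if there was one, cannot be told apart from the line.

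The effect of DOT1L depletion was then compared between the lines with an interaction term, in which HEL minus K562 passed for 38.9% of genes (19.8% higher and 19.1% lower). It passed for 4 of the 8 genes, each with the higher change in HEL, and 1 of these differed by at least 1 on the log2 scale, as did 12.7% of genes: IGF2BP2 by 2.02 ± 0.089, IGF2BP3 by 0.99 ± 0.092, ZBTB7A by 0.92 ± 0.10 and HMGA1 by 0.90 ± 0.068 on the log2 scale (adjusted p at most 3.51e-07). For LIN28B the difference was -0.05 ± 0.088 (adjusted p = 0.742, interval -0.22 to 0.12) and for IGF2BP1 0.16 ± 0.073 (adjusted p = 0.0986, and 0.0147 without DOT1L KO 1). BCL11A and HMGA2 had counts at or near 0 in one line, and their fitted interaction has no usable size. Line here goes together with knockdown against knockout, which cannot be told apart.

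The genes with the pattern most like that of IGF2BP2 over the 12 libraries, by the root mean square difference of log2(CPM + 0.5) among 9691 genes, were the glycolytic enzyme gene ALDOC (0.117), the chromatin remodeller gene CHD7 (0.161) and the membrane skeleton gene EPB41L2 (0.210). Each value was centred on the control mean of its own line, so differences in level between the lines do not enter. In K562 DOT1L KO they fell by 1.86, 1.56 and 1.78 on the log2 scale. In HEL DOT1L KD, where IGF2BP2 rose by 0.18, ALDOC stood at 0.05, CHD7 rose by 0.38 and EPB41L2 fell by 0.24, so their likeness to IGF2BP2 did not extend to the direction of each small change there. For HMGA2, searched over the 8 K562 libraries among 10214 genes, they were the platelet tubulin gene TUBB1 (0.257), the glutamate receptor gene GRIN2C (0.343) and RAB27B, a small GTPase gene of secretory granules (0.371). In ENL KO these rose by 2.83, 3.56 and 2.79, and in DOT1L KO by 0.81, 0.86 and 1.12. TUBB1 is itself a gene of the megakaryocytic lineage. The summed markers of that lineage were 7.22 to 9.73 CPM in K562 control, 32.8 to 34.9 in DOT1L KO and 29.1 to 36.4 in ENL KO. HEL control, at 2685 to 2762 CPM of these markers, had no count of HMGA2. The part of this lineage in the HMGA2 pattern was not tested. The similar genes were picked for their likeness, so their values are a description with no test.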

How the data were processed

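Polyadenylated RNA had been sequenced as strand-specific dUTP libraries, per the labels' protocols. The authors deposited whole-number counts per gene, as fragment counts for K562 and read counts for HEL, per the file headers. The submitters' processing notes name fastp 0.13.1, HISAT2 2.1.0, Bowtie2 2.3.4.1 and featureCounts 1.6.1 with builds hg38 and hg19, without their roles. The strand setting of counting is not given in the sources used here, and the tables list antisense partners of LIN28B, IGF2BP2 and HMGA2, whose reads could then not be told apart. Symbols of 26353 genes (93.7%) matched RefSeq GRCh38.p14, and 26278 of the 26326 on main chromosomes overlapped their position there, the 8 genes included. Lengths are the deposited exonic lengths.

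Of 74 samples, the 13 RNA-seq samples were used. Columns 2 and 3 of the K562 control were identical over all genes and were counted as 1 sample (control 2). Over the other replicate pairs, chi-square divided by its degrees of freedom was 4.05 to 9.64 in K562 and 1.31 to 1.45 in HEL. Genes were filtered with filterByExpr (minimum count 10, total 15), scaled with TMM and tested with the quasi-likelihood test of edgeR 4.0.16 in R 4.3.3, with Benjamini-Hochberg adjustment over all tested genes and a threshold of 0.05. All K562 groups were in one fit of 8 libraries, HEL in a fit of 4, and both lines in a joint fit of 9. The tests were tested on simulated data first. SE was derived from the F statistic, and intervals use the normal quantile. Fitted fold changes against a group at 0 were replaced by bounds from 3 counts per library. Floors and counting intervals (exact, 95%) cover counting error only, since no molecular identifiers were used.

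The members and lists were chosen with earlier results of these data known. Named genes were the 8 members, the 3 largest called changes of each pathway list in each comparison with a control (with the same genes' values in the other comparisons where given), the globins in at most 2 sentences a comparison, markers that make up a sum, and for members changed by at least 1 on the log2 scale the 3 genes with the most similar pattern (mean of at least 5 CPM in K562). A gene that this rule would name is not reported here. Same-numbered libraries deviated together with correlations of 0.05 to 0.22 in K562 and 0.00 in HEL, not above 0.1 in every pair, so the numbers were not taken to pair samples. Alternatives were DESeq2 1.42.0, RLE, upper-quartile and library-size scaling, no filter, a fold minimum, the compared groups alone, the identical columns entered apart, a replicate block and leaving out each library.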

Additional observations from a re-analysis of the deposited data

Results flagged for a closer look

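For 4 of the 8 genes the response to DOT1L depletion differed between HEL and K562 by the interaction test of edgeR. It also differed for 38.9% of all 15367 tested genes, so the count alone says little. The HEL minus K562 difference in log2 fold change was 2.02 for IGF2BP2, 0.99 for IGF2BP3, 0.92 for ZBTB7A and 0.90 for HMGA1. IGF2BP2, IGF2BP3 and ZBTB7A fell in each of the 3 K562 DOT1L KO libraries and rose in both HEL DOT1L KD libraries, whereas HMGA1 fell in K562 and its small change in HEL depended on the scaling. Line, knockdown against knockout, and read against fragment counting cannot be told apart here.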

How the results depend on the processing

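No fold change of the 8 genes that had passed the threshold changed sign under the alternatives run. Among those that had not passed, ZBTB7A, IGF2BP3 and HMGA1 in ENL KO and LIN28B and IGF2BP1 between the knockouts changed sign when a library was left out, and IGF2BP1 in HEL DOT1L KD did so with upper-quartile scaling. The fitted HMGA2 interaction, which has no usable size, changed sign without HEL DOT1L KD 1. Of the log2 fold changes of the 8 genes and LIN28A under the alternatives, 589 kept their side of the threshold, 43 lost it and 6 gained it. These counts include the fold minimum of 1 on the log2 scale, which refits nothing and removes smaller changes by rule. Requiring a change of at least 1 on the log2 scale besides the adjusted p left 2 of the 8 genes in DOT1L KO, 1 in ENL KO, 2 between the knockouts, 0 in HEL DOT1L KD, 5 between the lines and 1 for the interaction. Under that rule the lists of fetal globin silencing, let-7 biogenesis, other let-7 targets and IGF2BP targets held 2, 1, 1 and 2 genes in DOT1L KO, 1, 2, 3 and 0 in ENL KO, and 1, 0, 1 and 0 in HEL DOT1L KD. DESeq2 called 4 let-7 biogenesis genes in HEL DOT1L KD in place of 8, and 4371 of all genes in place of 6951. Leaving out 1 library at a time gave 2 to 4 called genes in ENL KO, the lowest without control 1. The replicate block left 7, 4 and 5 called genes in DOT1L KO, ENL KO and HEL DOT1L KD, with IGF2BP2 at -1.82 in DOT1L KO, and changed no call of the 8 genes. HEL libraries are the shallowest, so BCL11A (43 to 59 counts) is the least precise of the tested genes there.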
